A study of Mus musculus with 6 samples.

Results

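Inner hair cells release glutamate onto auditory nerve fibres at ribbon synapses, where an electron-dense ribbon holds vesicles beside a cluster of voltage-gated calcium channels. A change of membrane voltage opens these channels, and the calcium that enters triggers fusion of the tethered vesicles, so the synapse can follow sound for long periods without tiring. The genes described here cover the steps in this order: transmitter loading (*Slc17a8*), the ribbon and its anchor (*Ctbp2*, *Bsn*), the active zone (*Rims2*), the calcium channel and its partners (*Cacna1d*, *Cacnb2*, *Cabp2*) and vesicle fusion (*Otof*), with *Pjvk*, a hair cell gene of the gasdermin family whose loss causes deafness. They were chosen by name and are 9 of the 51802 gene symbols listed.

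Bulk RNA was sequenced from whole cochleae of mice 2 months old on a C57/BL6J background, a strain that carries its own *Cdh23* allele known for progressive hearing loss. There were 3 samples from wildtype littermates, numbered 3, 4 and 5, and 3 from *Pou4f3(Δ/+)* mice, numbered 1, 2 and 3. The latter carry 1 knock-in allele of *Pou4f3*, a hair cell transcription factor, with a small deletion and a base change as in a human family with DFNA15 deafness, beside 1 wildtype allele. Cells were not sorted, so the RNA of hair cells was mixed with that of neurons, glia, bone and blood, and fewer hair cells could not be told apart from less RNA per hair cell. The labels do not say whether each sample was a separate animal or a pool, so the p-values measure the spread between these samples. Values per sample are given below in the order wildtype 3, 4, 5 and *Pou4f3(Δ/+)* 1, 2, 3.

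The summed counts per sample ranged from 14295069 to 17696784. *Pou4f3* itself had 68, 72 and 88 counts in wildtype and 66, 97 and 52 counts in *Pou4f3(Δ/+)*, and these counts do not separate the alleles. All 20 hair cell markers were detected, with a summed level of 822 to 881 CPM (counts scaled to library size, edgeR's TMM) in wildtype and 733 to 857 in *Pou4f3(Δ/+)*. Gene by gene 10 were negative and 10 positive, with a median log2 fold change of 0.02, and the mean log2 CPM was highest in mutant replicate 2, at 3.59, the sample with the lowest sum. The 12 neuronal markers summed to 1622 to 1769 CPM in wildtype, against 1477, 1311 and 1789 CPM in the mutant samples. The 6 erythroid markers summed to 8503 to 9818 CPM in wildtype and to 11753, 13175 and 9130 CPM in the mutant samples. *Pou4f3(Δ/+)* replicates 1 and 2 thus had less neuronal and more red cell RNA than every wildtype sample, and replicate 3 had more neuronal RNA than every wildtype sample. The 9 B cell markers summed to 637, 1748 and 502 CPM in wildtype and to 1061, 1737 and 621 CPM in *Pou4f3(Δ/+)*. Their sums overlapped, but gene by gene 8 of the 9 had a positive log2 fold change with an unadjusted p under 0.05, and the median was 0.84. Of the 8 bone markers 6 were negative, 4 of them with an unadjusted p under 0.05, with a median of -0.34, whereas their sums overlapped, at 5912 to 7393 CPM in wildtype and 6633, 8074 and 5405 CPM in the mutant samples. The 6 Schwann cell markers summed to 1951 to 2246 CPM in wildtype and to 1695, 1724 and 2246 CPM in the mutant samples, and the 5 markers of central nervous system glia to 116 to 157 CPM and to 110, 105 and 158 CPM. Of these 5, 4 were negative, 1 of them with an unadjusted p under 0.05, with a median of -0.20. None of these markers had an adjusted p under 0.05 (edgeR). The part of these differences in the results below was not tested. Fits without mutant replicates 1 and 2 have 1 mutant library left, which is assumed to vary like wildtype.

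The ribbon protein RIBEYE and the transcriptional corepressor CtBP2 are made from the same gene. The stretch in which their messages part is shown because the exons they share cannot tell ribbon RNA from corepressor RNA. The annotated RIBEYE transcript, ENSMUST00000169570, joins 1687 coding bases of its own to the exons shared with CtBP2, whereas the longer CtBP2 transcript, ENSMUST00000033269, joins 58 coding bases of its own to the same 1277 shared coding bases. The 45 bases on each side of that junction follow, taken from the GENCODE M21 transcripts of the minus strand of GRCm38, 5′ to 3′, with the bases of the transcript's own exon in capitals and those of the shared exon in lower case; the introns removed lie within chr7:132999301-133013562 for RIBEYE and chr7:132999301-133025757 for CtBP2.
RIBEYE: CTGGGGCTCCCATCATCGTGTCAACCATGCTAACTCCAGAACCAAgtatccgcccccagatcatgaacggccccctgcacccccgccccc
CtBP2: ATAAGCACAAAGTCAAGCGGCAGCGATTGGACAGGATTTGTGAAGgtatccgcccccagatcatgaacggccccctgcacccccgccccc

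The pore of the hair cell calcium channel, encoded by *Cacna1d*, has a pair of mutually exclusive exons for one of its membrane-spanning segments. Both are 104 bases long and each is found in 1 of the 2 listed transcripts. They are shown because they are a coding difference between the transcripts whose estimated shares varied widely between samples. The exon of ENSMUST00000112249 lies at chr14:30171956-30172059 and that of ENSMUST00000112250 at chr14:30171296-30171399 (GRCm38, minus strand), and the 22 bases that differ between them are in capitals, which leaves 78.8% identity.
ENSMUST00000112249: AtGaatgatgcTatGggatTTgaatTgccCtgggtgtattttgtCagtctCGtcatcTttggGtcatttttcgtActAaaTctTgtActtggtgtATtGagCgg
ENSMUST00000112250: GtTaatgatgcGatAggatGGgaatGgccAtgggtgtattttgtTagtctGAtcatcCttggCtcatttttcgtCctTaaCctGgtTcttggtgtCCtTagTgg

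The coding sequence of otoferlin transcripts can end in either of 2 alternative last coding exons of 178 bases. Of the 2 transcripts shown, only ENSMUST00000114747 was assigned a level above 0 FPKM here. The exon of ENSMUST00000114747 lies at chr5:30367863-30368040 and that of ENSMUST00000074171 at chr5:30370101-30370278 (GRCm38, minus strand). They differ at 59 positions, in capitals, and are 66.9% identical.
ENSMUST00000114747: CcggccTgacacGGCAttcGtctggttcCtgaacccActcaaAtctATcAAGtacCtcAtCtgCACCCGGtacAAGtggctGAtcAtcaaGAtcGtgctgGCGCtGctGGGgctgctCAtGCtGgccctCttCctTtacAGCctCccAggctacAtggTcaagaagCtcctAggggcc
ENSMUST00000074171: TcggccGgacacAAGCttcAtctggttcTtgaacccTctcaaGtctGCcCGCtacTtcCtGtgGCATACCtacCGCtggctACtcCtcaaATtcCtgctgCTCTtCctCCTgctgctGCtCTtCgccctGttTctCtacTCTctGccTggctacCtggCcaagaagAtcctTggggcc

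Of the 9 genes, 8 were detected and *Cabp2* was listed at 0 in all 6 samples. On a per-length scale (FPKM, fragments per kilobase of transcript scaled to library size, added up over a gene's transcripts), the order of the means over 6 samples was *Ctbp2* at 18.1, *Cacnb2* at 6.62, *Otof* at 4.72, *Cacna1d* at 2.81, *Slc17a8* at 2.44, *Bsn* at 2.38, *Pjvk* at 0.888 and *Rims2* at 0.702. *Ctbp2* lay above *Cacnb2* in every sample. The ranges over samples overlapped between *Cacnb2* and *Otof*, between *Cacna1d*, *Slc17a8* and *Bsn*, and between *Pjvk* and *Rims2*, so those neighbours in the order were not separated by their spread. Most of the *Ctbp2* level was not assigned to RIBEYE, as described below, so its place at the head of the order does not describe the ribbon protein.

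**Figure D1:**
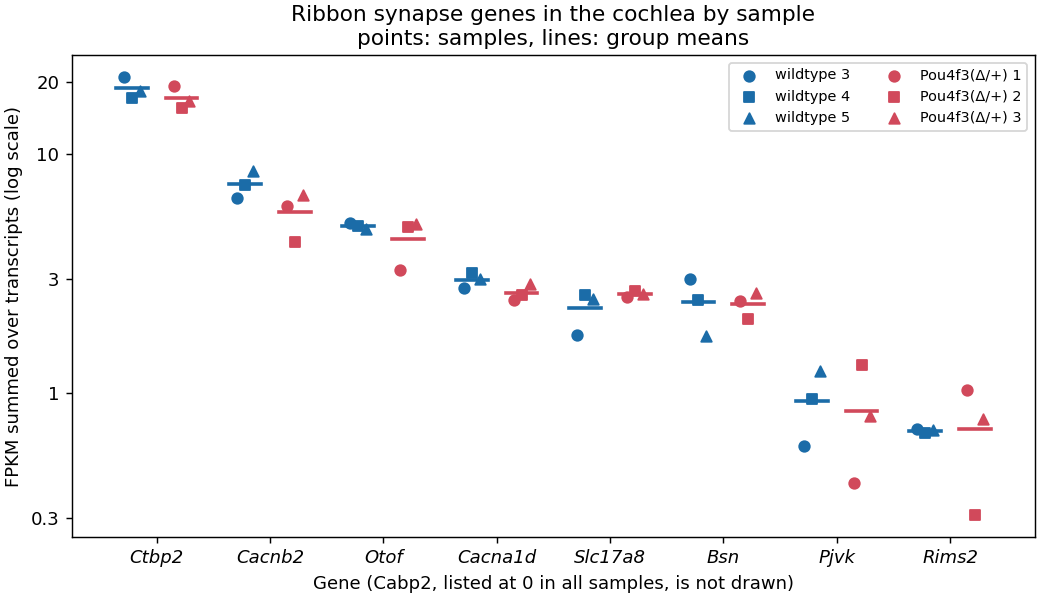
FPKM of the 8 detected genes (log scale) in each wildtype sample (blue) and each *Pou4f3(Δ/+)* sample (red), with lines at the group means. The 2 groups overlap for each gene, and *Ctbp2*, at 15.7 to 21.01 FPKM, stands above the rest.

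No difference between genotypes was detected for the 8 genes tested. In edgeR's quasi-likelihood test over all genes, 0 of the 8 had an adjusted p under 0.05, against 0% of the 17136 genes tested, and 0 of the 8 had an unadjusted p under 0.05, against 7.64% of all genes. DESeq2 and limma-trend on log2(FPKM + 0.5) also gave 0 adjusted and 0 unadjusted calls among the 8. With other settings of edgeR, *Cacnb2* alone of the 8 passed an unadjusted threshold of 0.05, with no filter, without wildtype replicate 3 and without mutant replicate 3, at edgeR adjusted p = 0.693, 0.729 and 0.277. The wildtype and mutant CPM overlapped for all 8, whereas the groups did not overlap for 12.6% of all genes. The log2 fold change (*Pou4f3(Δ/+)* minus wildtype) was negative for 6 and positive for 2, with a median of -0.10, beside -0.00 and 50.6% negative over all genes tested. The smallest unadjusted p was 0.0600, for *Cacnb2*.

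**Figure D2:**
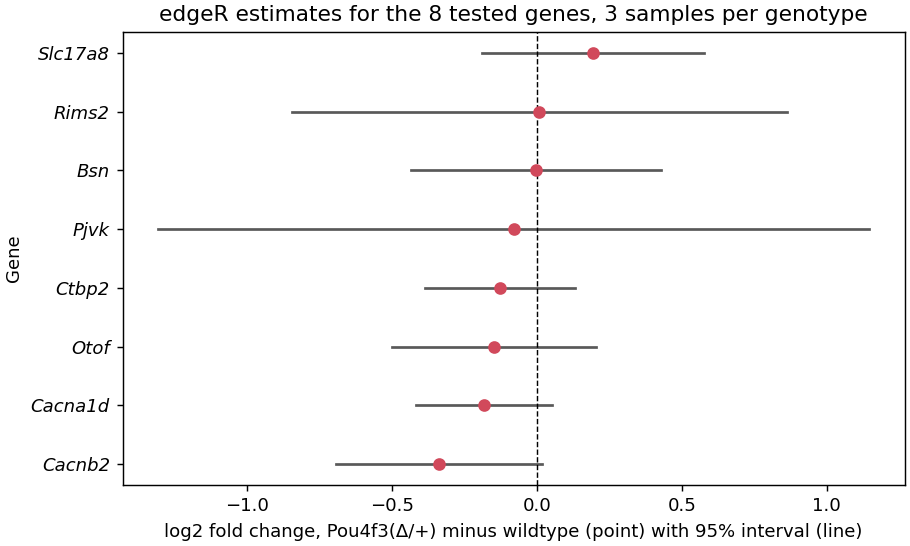
Log2 fold change of *Pou4f3(Δ/+)* against wildtype for the 8 tested genes (points) with 95% intervals (lines) from edgeR, 3 samples per genotype. Every interval includes 0, and the widest belong to the low-count genes *Pjvk* and *Rims2*.

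*Slc17a8* (ENSMUSG00000019935, chr10:89574020-89621253, minus strand) encodes VGLUT3, the transporter that fills hair cell vesicles with glutamate. It had 135, 165 and 190 counts in wildtype and 199, 185 and 170 in *Pou4f3(Δ/+)*, which is 1.76, 2.59 and 2.48 FPKM against 2.52, 2.68 and 2.60 FPKM. The mutant samples were alike and lay within or just above the wildtype range, which was wide because wildtype replicate 3 was low. Its log2 fold change of 0.19 ± 0.17 (SE, standard error) gave an adjusted p of 0.777 in edgeR's test, with a 95% interval of 0.877 to 1.49-fold. Without wildtype replicate 3 it was 0.04. Essentially all of its counts fell on 1 transcript, ENSMUST00000020102, with 12 exons.

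The transporters of the same family that load glutamate in neurons were more abundant than *Slc17a8*, with *Slc17a7* (VGLUT1) at 27.5 to 36.3 FPKM and *Slc17a6* (VGLUT2) at 8.31 to 11.7 FPKM over the 6 samples. No test was run between genes.

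*Ctbp2* (ENSMUSG00000030970, chr7:132987563-133124354, minus strand) had 722, 504 and 657 counts in wildtype and 710, 496 and 493 in *Pou4f3(Δ/+)*. Its FPKM was 21.01, 17.2 and 18.5 against 19.4, 15.7 and 16.7, so the groups overlapped. In log2 units the fold change was -0.13 ± 0.11 (SE; adjusted p = 0.784 by edgeR), with an interval of 0.765 to 1.10-fold. It was -0.06 without wildtype replicate 3 and -0.23 without mutant replicate 1. The annotated span of the gene overlaps that of *Fgfr2* on the same strand.

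Very little of this signal was assigned to RIBEYE, the scaffold of the ribbon. The capitals of the RIBEYE sequence above set its transcript apart from ENSMUST00000033269, and other listed transcripts were not compared with them. ENSMUST00000169570 had 5.94, 7.17 and 9.81 estimated counts in wildtype and 2.65, 11.8 and 0 in *Pou4f3(Δ/+)*. It passed 3 counts in 4 of the 6 libraries, and it held between 0% and 1.34% of the gene's FPKM. In mutant replicate 3, where it was at 0, an overlapping transcript annotated for nonsense-mediated decay, ENSMUST00000165457, was given 7.12 counts, and that one was at 0 in the other 5 samples. Whether the estimate separates them was not tested. A floor of 3 counts corresponds to 0.0470 to 0.0582 FPKM for this transcript. The transcript was below the filter of the main test, and with no filter its adjusted p was 0.974 (edgeR).

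The CtBP2 transcripts held most of the rest. ENSMUST00000033269, with 1335 coding bases, was at 8.54, 7.94 and 10.6 FPKM in wildtype and 11.9, 8.92 and 7.46 FPKM in *Pou4f3(Δ/+)*. ENSMUST00000166439, whose 1260 coding bases lack the first exon shown above, was at 9.95, 7.63 and 5.94 FPKM and 5.61, 4.59 and 7.20 FPKM. The share of the shorter form was 41.3% ± 8.09 in the 3 wildtype samples and 33.8% ± 8.17 in the 3 mutant samples (SD), a difference of -7.53 percentage points (exact permutation test, two-sided, p = 0.20, where 3 against 3 samples can give no less than 0.10), and -4.51 to -12.2 with 1 sample left out. The paralog *Ctbp1*, a corepressor with no ribbon form, was at 60.6 to 70.6 FPKM.

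*Bsn* (ENSMUSG00000032589, chr9:108096022-108190384, minus strand) encodes bassoon, which anchors the ribbon to the active zone and is also used at conventional synapses. It had 523, 359 and 318 counts in wildtype and 454, 306 and 419 in *Pou4f3(Δ/+)*. By FPKM all mutant samples, at 2.43, 2.05 and 2.62, lay inside the wildtype range of 1.74 to 3.01, and edgeR gave a log2 fold change of -0.00 ± 0.19 (SE; adjusted p = 0.996; interval 0.740 to 1.35-fold). The transcript with the whole coding sequence, ENSMUST00000035208 with 11826 coding bases, had 252, 184 and 178 counts and 246, 130 and 247 counts, and ENSMUST00000124763, whose annotated coding sequence is 3511 bases, had 271, 175 and 140 counts and 208, 176 and 172 counts. By FPKM the shorter one held 66.3% ± 3.43 in the 3 wildtype samples and 66.1% ± 7.30 in the 3 mutant samples (SD) (exact permutation test, two-sided, p = 1.0). *Pclo*, the giant relative of bassoon, was at 1.04 to 1.68 FPKM.

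*Rims2* (ENSMUSG00000037386, chr15:39198261-39684372, plus strand) encodes RIM2, an active zone protein that helps gather calcium channels at release sites. It had 59, 47 and 58 counts in wildtype and 87, 23 and 55 in *Pou4f3(Δ/+)*. The 3 wildtype samples were nearly equal, at 0.71, 0.68 and 0.70 FPKM, and the mutant samples spread from 0.31 in replicate 2 to 1.03 in replicate 1, on both sides of them. The edgeR estimate was a log2 fold change of 0.01 ± 0.38 (SE; adjusted p = 0.994), with a 95% interval of 0.557 to 1.82-fold, so changes of moderate size in either direction lie within the error.

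The 2 listed *Rims2* transcripts, which share 25 coding exons, divided the samples by genotype at low counts. ENSMUST00000042917, named here after its values were seen, had no counts above 0.01 in wildtype and 10.9, 7.95 and 11.8 estimated counts in *Pou4f3(Δ/+)*. Over all transcripts with no filter, the groups did not overlap in CPM for 8.14%. Of the 42551 transcripts with over 3 counts in every sample of a genotype, 104 (0.244%) had at most 0.01 in every sample of the other, a pattern counted after this transcript was seen. It held 12.6%, 35.5% and 21.8% of the FPKM of the gene in the mutant samples, whereas ENSMUST00000082054 held the whole in wildtype (exact permutation test, two-sided, p = 0.10, the smallest it can give). It did not pass the filter on low counts. With no filter its adjusted p was 0.848 in the edgeR test of transcripts and 0.149 in that of transcript usage. Reads of the shared exons are divided between transcripts by estimation, so these counts rest on few reads from the exons particular to each. Those of ENSMUST00000082054 lie at chr15:39274976-39275008 and chr15:39275414-39275500, and those of ENSMUST00000042917 at chr15:39517806-39517871 and chr15:39534838-39535017 (GRCm38, plus strand). The first exon of each pair is shown because these bases assign a read to one transcript or the other.
ENSMUST00000082054: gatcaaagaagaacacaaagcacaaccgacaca
ENSMUST00000042917: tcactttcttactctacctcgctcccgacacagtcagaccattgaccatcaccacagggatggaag

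Among the relatives of *Rims2*, *Rims3* was at 4.82 to 7.09 FPKM, *Rims4* at 1.00 to 1.23 FPKM, and *Rims1* was listed at 0 in all samples.

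*Cacna1d* (ENSMUSG00000015968, chr14:30039939-30491455, minus strand) encodes the pore of CaV1.3, the calcium channel that triggers release in inner hair cells. It had 426, 409 and 461 counts in wildtype and 393, 351 and 379 in *Pou4f3(Δ/+)*. At 2.77, 3.18 and 3.02 FPKM against 2.46, 2.59 and 2.86 FPKM the mutant samples lay low, but replicate 3 reached into the wildtype range. By edgeR's test it had a log2 fold change of -0.18 ± 0.10 (SE; adjusted p = 0.669) with an interval of 0.749 to 1.04-fold. Leaving out mutant replicate 1 or 2 alone gave -0.14 and -0.17, and leaving out both, with 1 mutant library left, gave -0.07. The other L-type pores were near or below 1 FPKM, with *Cacna1c* at 0.63 to 1.29 FPKM and the photoreceptor channel *Cacna1f* at 0.05 to 0.12 FPKM, whereas the presynaptic pore of neurons, *Cacna1a*, was at 2.16 to 3.93 FPKM.

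The total of *Cacna1d* varied little and its estimated division between the 2 transcripts varied much. ENSMUST00000112249 held 64.6%, 84.6% and 54.6% of the FPKM in wildtype and 88.2%, 19.7% and 96.9% in *Pou4f3(Δ/+)*, and the rest lay on ENSMUST00000112250. Mutant replicates 2 and 3 were the lowest and the highest of the 6 samples, so the spread within the mutant group exceeded any difference between genotypes (means 67.9% and 68.3%, exact permutation test, two-sided, p = 1.0). Over the 6 samples the coefficient of variation was 8.97% for the CPM of the gene and 43.2% for that of ENSMUST00000112249. These transcripts share 45 coding exons and the counts are estimates, so the split rests on reads from the parts that differ, which are the bases shown above and the ends of the transcripts. Reads on the 104-base exons themselves were not counted.

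*Cacnb2* (ENSMUSG00000057914, chr2:14603088-14987908, plus strand) encodes the auxiliary subunit that brings the pore to the membrane of inner hair cells, and of the 8 genes it had the most negative fold change. Its counts were 311, 290 and 438 in wildtype and 309, 222 and 276 in *Pou4f3(Δ/+)*. In FPKM, wildtype was at 6.54, 7.46 and 8.56 and the mutant at 6.09, 4.28 and 6.77, so the groups met between wildtype replicate 3 and mutant replicate 3. The edgeR estimate was a log2 fold change of -0.34 ± 0.16 (SE; adjusted p = 0.647; interval 0.618 to 1.01-fold), and it was -0.18 without wildtype replicate 5 and -0.20 without mutant replicates 1 and 2.

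Of the 16 listed transcripts of *Cacnb2*, which have different first exons, 14 were above 0. ENSMUST00000114723, with 1965 coding bases, was at 2.47, 1.96 and 3.52 FPKM in wildtype and at 2.95, 2.96 and 2.78 FPKM in *Pou4f3(Δ/+)*, with no shift. ENSMUST00000114719, with 1833 coding bases, was at 0.81, 2.17 and 1.64 FPKM and at 1.09, 0.50 and 0.13 FPKM, and rested on 3.92 to 65.7 counts per sample. In wildtype replicate 3 and mutant replicate 3 another transcript of the same length, ENSMUST00000193800, had exactly the same estimated count. It had no more than 0.021 counts in each of the other samples, and how the estimate divides this pair was not tested. Summed, the pair was at 1.62, 2.17 and 1.64 FPKM in wildtype and at 1.09, 0.50 and 0.26 FPKM in *Pou4f3(Δ/+)*, on 59.4, 65.7 and 59.6 counts against 40.8, 16.5 and 7.85. All 3 mutant samples lay below all wildtype samples, as they did, in either direction, for 10.8% of all transcripts tested. The pair was summed after its values were seen and got no test. The log2 fold change of ENSMUST00000114719 was -1.41 ± 0.76 (SE; edgeR adjusted p = 0.999). As a share of the FPKM of *Cacnb2*, ENSMUST00000114723 was at 35.1% ± 7.79 in the 3 wildtype samples and at 52.9% ± 14.6 in the 3 mutant samples (SD) (exact permutation test, two-sided, p = 0.20). The difference of 17.8 percentage points was 9.70 without mutant replicate 2. Of the sister subunits, *Cacnb3* was above *Cacnb2* at 9.70 to 12.7 FPKM and *Cacnb4* was in its range at 4.42 to 6.40 FPKM.

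*Cabp2* (ENSMUSG00000024857, chr19:4081578-4087340, plus strand) encodes a calcium-binding protein that keeps the hair cell channel from inactivating, and all 5 of its listed transcripts were at 0 in all samples, which by counting error alone allows up to 3 counts per library or 0.170 to 0.210 CPM. This value could not be read as absence of the gene's RNA, because a run of neighbouring genes was at or near 0 as well. Of the 12 protein-coding genes nearest to *Cabp2*, 6 on each side, 7 had fewer than 10 counts over the 6 samples together, against 24.8% of the 21276 protein-coding genes listed. Among them were *Gstp2* with 1 count, *Gstp3* and *Cdk2ap2* with 0, *Pitpnm1* with 9, *Cabp4* with 1 and *Gpr152* with 2. *Cdk2ap2*, a cell cycle regulator, is expressed in most tissues. Just outside the run, *Gstp1* had 142 counts on one side and *Coro1b* 701 on the other, and beyond *Gstp1*, *Ndufv1* had 6133. The cause was not tested, and *Cabp2* was not compared between genotypes. This neighbourhood was examined after the 0 was seen. Its relative *Cabp1* was at 11.4 to 18.7 FPKM.

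Around the other genes the neighbours were mostly covered, and the number with fewer than 10 counts out of 12 was 0 for *Slc17a8* and *Bsn*, 1 for *Cacna1d* and *Pjvk*, 2 for *Otof* and *Cacnb2* and 3 for *Ctbp2*. *Rims2* was the exception, with 6 of 12, among them *Fzd6*, *Cthrc1* and *Slc25a32*, which lie in a row and were at 0. *Rims2* itself had counts in every sample, but whether some of its reads were lost in the counting was not tested, so its place among the levels is uncertain.

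*Otof* (ENSMUSG00000062372, chr5:30367062-30461932, minus strand) encodes otoferlin, the calcium sensor of vesicle fusion in hair cells. It had 589, 458 and 560 counts in wildtype and 393, 503 and 510 counts in *Pou4f3(Δ/+)*. At 5.15, 5.02 and 4.86 FPKM against 3.27, 4.95 and 5.10 FPKM, 5 of the 6 samples lay close together and mutant replicate 1 was low. By edgeR's test it had an adjusted p of 0.813 and a log2 fold change of -0.15 ± 0.16 (SE), with an interval of 0.707 to 1.15-fold. It rested on that 1 sample: without mutant replicate 1 it was 0.03.

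The *Otof* transcript whose last coding exon lies at chr5:30367863-30368040, ENSMUST00000114747, held 78.8%, 86.3% and 87.9% of the FPKM of *Otof* in wildtype and 78.0%, 85.5% and 82.5% in *Pou4f3(Δ/+)* (exact permutation test, two-sided, p = 0.50). ENSMUST00000074171, with the alternative last coding exon shown above, was listed at 0 FPKM in all 6 samples. The other 3 listed transcripts are annotated as retained introns and carry no coding sequence. Of the other ferlins, *Myof* was at 7.61 to 12.4 FPKM and *Dysf* at 2.62 to 3.44 FPKM, and both belong to many cell types.

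*Pjvk* (ENSMUSG00000075267, chr2:76648476-76658556, plus strand), which encodes pejvakin, was listed under its older symbol *Dfnb59*. Pejvakin acts in the turnover of peroxisomes in hair cells and auditory neurons, and is not a structural part of the ribbon. Its counts were 9, 15 and 25 in wildtype and 9, 25 and 11 in *Pou4f3(Δ/+)*, with the same lowest and highest value in each group. In log2 units the fold change was -0.08 ± 0.54 (SE; adjusted p = 0.975 by edgeR), and the interval of 0.404 to 2.21-fold was the widest of the 8. ENSMUST00000099986, with 1056 coding bases, had between 3.59 and 25 counts per sample, and the remainder lay on the shorter ENSMUST00000144817.

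**Figure D3:**
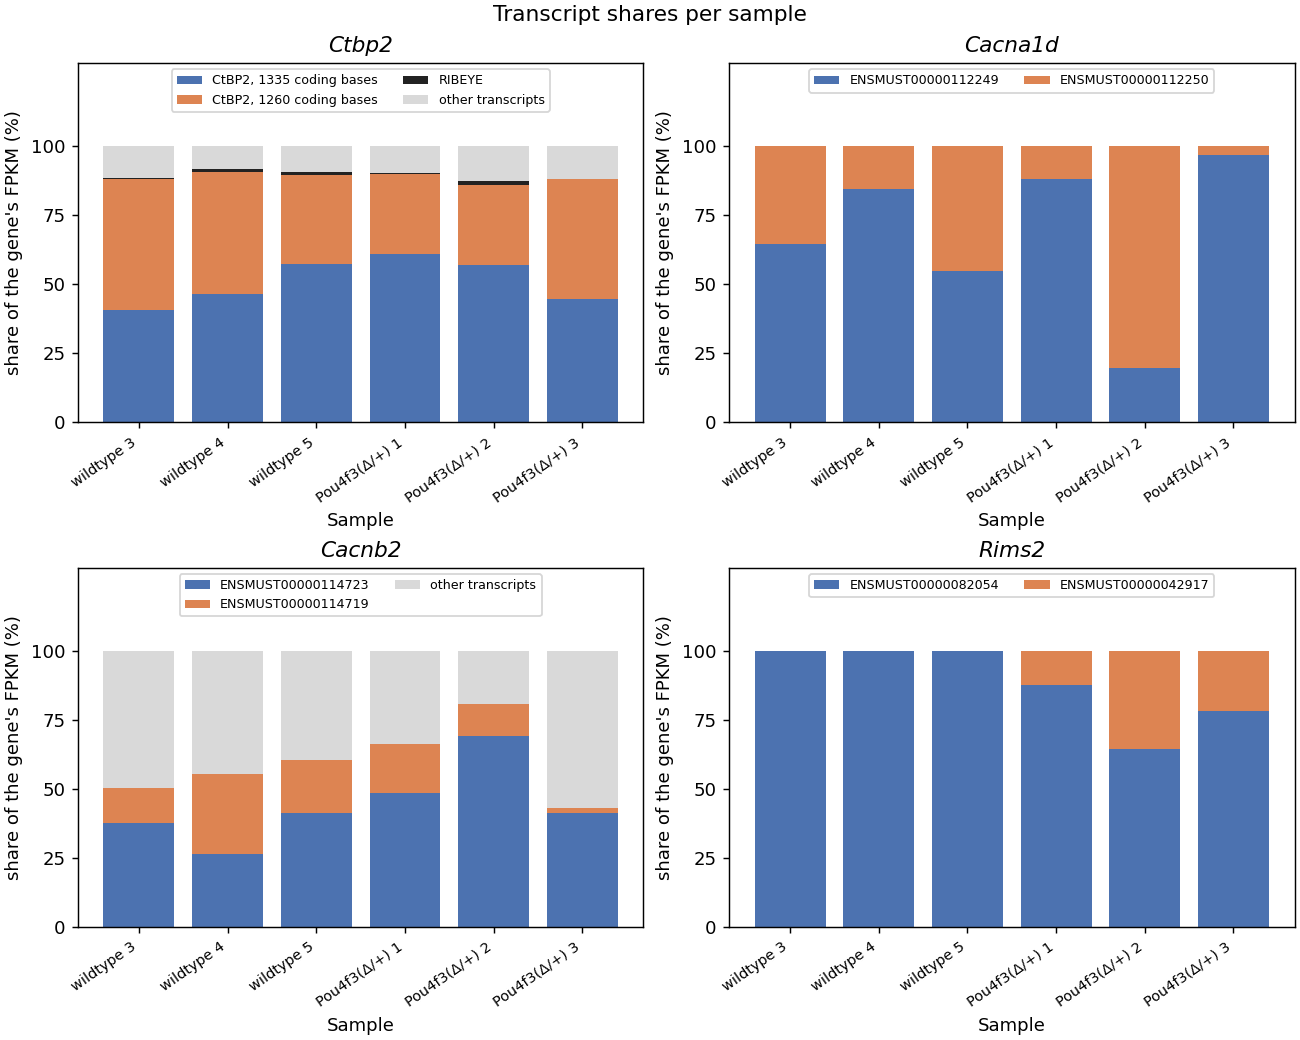
Share of a gene's FPKM (percent) held by its transcripts in each sample, for *Ctbp2*, *Cacna1d*, *Cacnb2* and *Rims2*. RIBEYE is a thin black band of at most 1.34%, the *Cacna1d* split runs from 19.7% to 96.9% within *Pou4f3(Δ/+)*, and the second *Rims2* transcript appears in the 3 mutant samples only.

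Of the 57 transcripts listed for the 9 genes, 40 were above 0 in a sample. In the edgeR test of transcripts, 18 passed the filter and 0 had an adjusted p under 0.05, against 0% of 38347 transcripts, and 0 of the 18 had an unadjusted p under 0.05, against 4.14%. In the test of transcript usage, which asks whether a transcript changed relative to the others of its gene, 15 could be tested and 0 were called, against 0.197% of 30447 transcripts, and 0 of the 15 had an unadjusted p under 0.05, against 1.54%.

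For the partners of these proteins at the synapse, too, no difference between genotypes passed the test. Of a list of 49 genes of the active zone, the channel complex, vesicle fusion, vesicle recycling and the postsynaptic side, 47 were tested and 0 had an adjusted p under 0.05 (edgeR). Those not tested were *Rims1*, listed at 0 in every sample, and *Rab3a*, a vesicle GTPase, with 1 to 8 counts per sample. Of the 12 nearest protein-coding genes, 6 around *Rab3a* and 3 around *Rims1* had fewer than 10 counts, against 24.8% of all protein-coding genes listed. The number for *Rims1* was near that share. Whether reads of either gene were lost in the counting was not tested. The log2 fold change was negative for 38 and positive for 9 of the 47, with a median of -0.09, beside 50.6% negative over all genes, and 2 had an unadjusted p under 0.05, both negative, where 4.14% of all genes had such a p and a negative change. By group, it was negative for 8 of 8 active zone genes, 8 of 9 channel subunits and modulators, 11 of 15 vesicle fusion genes, 7 of 8 genes of vesicle recycling and supply and 4 of 7 postsynaptic genes. By sample, the summed CPM of each of the 5 groups was below every wildtype sample in mutant replicates 1 and 2, the samples with less neuronal and more erythroid RNA. In mutant replicate 3 it was below every wildtype sample in 0 of the 5 groups and above every one in 2. Active zone genes were at 191 CPM there, against 178 to 189 in wildtype and 169 and 148 in mutant replicates 1 and 2. Channel subunits and modulators were at 177.325 CPM there, barely above the wildtype maximum of 177.298. Sums are ruled by abundant genes. By mean log2 CPM the postsynaptic genes of mutant replicate 1, at 4.28, lay above those of wildtype replicate 5, at 4.17. In the 12 neuronal markers, which mark cells that also express many of these partners, 10 were negative, with a median of -0.17, and in the 5 markers of central nervous system glia 4 were negative, with a median of -0.20.

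Partners with the smallest p were *Dnm1*, the dynamin that cuts recycled vesicles from the membrane, *Shank1*, a postsynaptic scaffold, and *Erc1*, an active zone scaffold. *Dnm1* was at 48.1, 54.8 and 52.0 FPKM in wildtype and 40.9, 35.5 and 49.0 FPKM in *Pou4f3(Δ/+)* (edgeR adjusted p = 0.643, log2 fold change -0.31 ± 0.10 as SE). By FPKM mutant replicates 1 and 2 were the lowest and replicate 3 was within the wildtype range, whereas in CPM, the scale of the test, all 3 mutant samples lay below all wildtype samples, as for 12.6% of all genes in either direction. The log2 fold changes of *Shank1* and *Erc1* were -0.33 and -0.19, with adjusted p of 0.643 and 0.649 in edgeR's test.

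**Figure D4:**
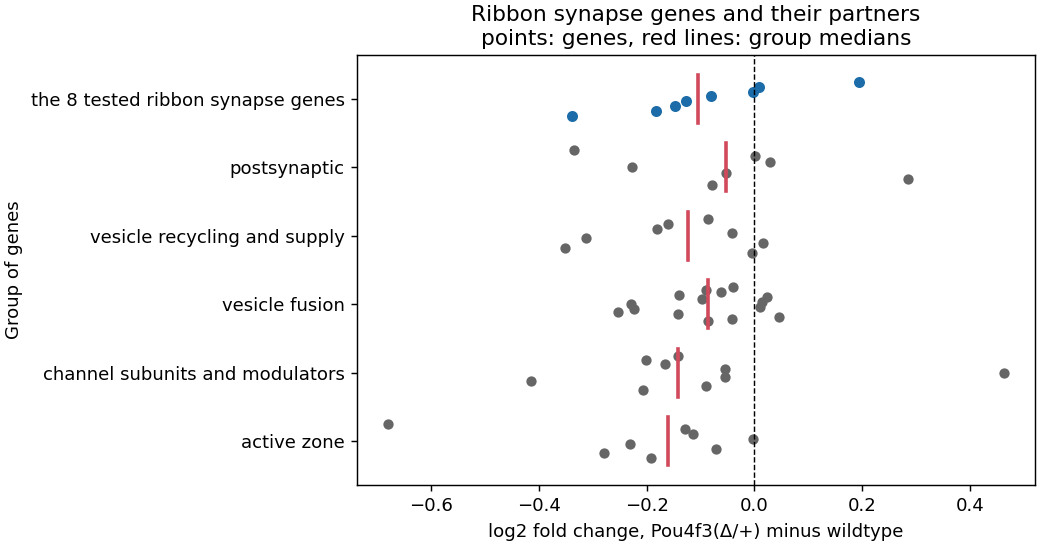
Log2 fold changes of *Pou4f3(Δ/+)* against wildtype for the 8 tested ribbon synapse genes (blue) and the 47 tested partners in 5 groups (grey), with the median of each group as a red line. The group medians lie between -0.16 and -0.05 and none of the genes has an adjusted p under 0.05.

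The genes whose level over the 6 samples was most like that of each ribbon synapse gene came from different cell types. Among 114 marker and partner genes, the highest Pearson correlation of log2 CPM was found for *Otof* with the hair cell transcription factor *Gfi1* (r = 0.90, n = 6 samples), for *Slc17a8* with the transduction channel gene *Tmc1* (r = 0.90) and for *Pjvk* with *Pou4f3* (r = 0.89). For *Cacna1d* it was the neuronal gene *Elavl3* (r = 0.96), for *Cacnb2* the Schwann cell gene *Sox10* (r = 0.99), for *Ctbp2* the glial gene *Olig2* (r = 0.93), for *Bsn* the glutamate receptor gene *Gria1* (r = 0.92) and for *Rims2* the potassium channel gene *Kcnma1* (r = 0.93). These values were the highest of 114 over only 6 samples that share libraries, and are given as a description. Spearman's rho for the same pairs was 0.66 for *Otof*, 0.43 for *Slc17a8*, 0.83 for *Pjvk*, 1.0 for *Cacna1d* and *Cacnb2*, 0.89 for *Ctbp2*, 0.94 for *Bsn* and 0.49 for *Rims2*. The next gene for *Cacna1d* was a hair cell marker, *Calb2* (r = 0.94).

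*Pou4f3* encodes a factor that binds DNA, and the RefSeq promoter table (GRCm38.p6) held 12 starts for 7 of the 9 genes, *Otof* and *Rims2* not among them. The POU4 family core ATAATTAAT, searched on both strands in the 250 bases before the start, was in 0 of these 12 and in 0.259% of 32851 promoters. This says only that these letters are not in these windows.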

How the data were processed

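The authors sequenced cochlear RNA with paired-end reads and deposited, for each of 128603 transcripts per sample, an expected count (an estimate that need not be whole, not normalized) and an FPKM value (scaled to transcript length and to the sample's counts). The submitters' processing notes list mm8 and DESeq2. The aligner and counting program are not given in the sources used here. All 57 member transcripts were found in GENCODE M21 (GRCm38), from which coordinates and transcript sequences were taken.

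Counts and FPKM were summed over the transcripts of a gene symbol. Summed expected counts, rounded, were tested with edgeR 4.0.16 in R 4.3.3 (filterByExpr with a minimum count of 10 and a minimum total of 15, TMM, quasi-likelihood test between the genotypes, 6 samples, no covariates, Benjamini-Hochberg adjustment over all features tested, threshold 0.05), per gene, per transcript and, with diffSpliceDGE, for transcript usage. Standard errors are the log2 fold change over the square root of F. The intervals are 95% intervals. Isoform shares were compared by exact permutation tests. Log2 CPM used a prior count of 2. SciPy, NumPy and pandas under Python were used for summaries. The tests were first tested on simulated data.

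The members and gene lists were chosen with earlier results of these data known. Named were the 9 genes, their transcripts with a mean FPKM of at least 1 in a genotype or else the most abundant one, RIBEYE, the 4 partners of smallest p where none was called, and the genes of highest correlation. An item that these rules select is not reported here. ENSMUST00000112250, ENSMUST00000035208, ENSMUST00000042917, ENSMUST00000074171, ENSMUST00000144817, ENSMUST00000165457, ENSMUST00000193800, *Rims1*, *Rab3a* and the neighbours of *Cabp2* and *Rims2* were named after their values were seen. No 2 samples agreed within counting error (chi-square per gene of at least 7.15). A floor of 3 counts covers counting error only. Alternatives were DESeq2 1.42.0, its size factors in edgeR, no filter, limma-trend 3.58.1 on log2(FPKM + pseudocount) with 0.5, 0.1 and 1, a mean FPKM of at least 1, each sample left out, mutant replicates 1 and 2 left out together, and the mean log2 CPM of 20 hair cell markers as a covariate.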

Additional observations from a re-analysis of the deposited data

How the results depend on the processing

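Under the 110 gene-level alternatives with 2 or more samples per genotype, 0 changed the call of any of the 8 genes, and the lowest adjusted p was 0.277 (*Cacnb2* without mutant replicate 3). The sign held in 89 and turned in 21, all for *Otof*, *Bsn*, *Rims2* and *Pjvk*. For *Otof*, leaving out 1 sample gave log2 fold changes from -0.26 to 0.028, and leaving out mutant replicates 1 and 2 gave 0.057. For *Bsn*, leaving out 1 sample gave -0.17 to 0.18, DESeq2 gave 0.00029, its size factors 0.00034, no filter 0.00015, limma-trend 0.0024 with a pseudocount of 0.5, 0.0067 with 0.1 and 0.0024 with the FPKM minimum, both replicates left out 0.19, and the hair cell covariate 0.020. For *Rims2*, leaving out 1 sample gave -0.37 to 0.36, limma-trend -0.037, -0.10 and -0.015 with pseudocounts of 0.5, 0.1 and 1, and the covariate -0.055. For *Pjvk*, leaving out 1 sample gave -0.70 to 0.30. *Rims2* and *Pjvk* gave no value under the FPKM minimum. The cause of these turns was not tested.

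Over all genes, the count of calls was 0, against 64 with DESeq2, 9 with no filter, 1 with limma-trend at a pseudocount of 0.1, 0 to 193 with 1 sample left out (193 without mutant replicate 3) and 6 without mutant replicates 1 and 2. For transcripts it was 0, against 130 with DESeq2, 1 with no filter, 2 with limma-trend at 0.1, and 0 to 3 with 1 sample left out. For transcript usage it was 60, 104 without mutant replicates 1 and 2, and 79 to 99 with 1 sample left out. The fits without mutant replicates 1 and 2 leave 1 mutant library and take the spread from wildtype alone. None of the other settings called any of the 8 genes or their transcripts, with a lowest adjusted p of 0.678 for transcripts and 0.112 for usage.

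The difference in the share of ENSMUST00000112249 of *Cacna1d* was 0.30 percentage points, -0.21 by counts, and -14.0 to 24.6 with 1 sample left out. For ENSMUST00000124763 of *Bsn* the latter range was -4.28 to 2.83, for ENSMUST00000099986 of *Pjvk* -3.04 to 34.9, and for RIBEYE -0.62 to 0.053. No paired analysis was run, because the labels give replicate numbers but do not name pairs of samples. Depth limits *Pjvk*, RIBEYE and the second *Rims2* transcript, all under 30 counts per sample.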
